A study of Mustela putorius furo and Mus musculus with 4 samples.

Results

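The cells described here are cycling radial glial (RG) cells of the mouse cortex at embryonic day 18 (E18). They were chosen from the unique molecular identifier (UMI) counts of single cells in a droplet library of each genotype, and a UMI marks 1 captured transcript. A cell of 750 to 5000 detected genes was a member if it had a UMI of at least 6 of 12 RG markers (*Fabp7*, *Aldoc*, *Mt3*, *Ptprz1*, *Tnc*, *Ddah1*, *Slc1a3*, *Vim*, *Sox9*, *Hes5*, *Pax6* and *Ptn*) and of at least 3 of 7 cycling genes (*Mki67*, *Top2a*, *Cdk1*, *Birc5*, *Ube2c*, *Cenpf* and *Nusap1*). It also had to have 0 UMIs of 8 genes of committed progenitors and neurons (*Eomes*, *Neurog2*, *Neurod2*, *Neurod6*, *Gad2*, *Pdgfra*, *Egfr* and *Olig2*). These 3 conditions were met by 946 of 17707 cells within the gene limits, 607 of 10498 in control and 339 of 7209 in *Smo*-cKO. The levels of all these genes therefore chose the members and support nothing below.

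Cortical RG cells are the neural stem cells of the developing cortex. Their nuclei move through the ventricular zone as they pass through the cell cycle, and they divide to renew themselves and to give rise to intermediate progenitors, neurons and, later, glia. Sonic hedgehog (SHH) acts on dividing progenitors through the membrane protein SMO, whose activity turns on the GLI target genes *Gli1*, *Ptch1* and *Hhip* and favours entry into the cycle through D-type cyclins. BMP signalling acts through SMAD proteins and turns on the Id genes.

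The *Smo*-cKO library comes from *hGFAP-Cre*;*Smo* F/F cortex, in which Cre under a human GFAP promoter deletes the floxed *Smo* gene in cortical RG cells. The control library comes from littermates, called *Smo* F/F in the study and wild type in the sample labels, and both genotypes are of the CD1 strain by the labels. In both, CellTrace Yellow, a dye that labels cells at the ventricle, was injected at E17, and labeled cells were sorted at E18. The number of embryos in each library is not given in the sources used here, and there is 1 library per genotype. The cells of a library share its embryos and its preparation, so no test between genotypes was made. Every interval is a 95% interval that covers counting error only, and genotype cannot be told apart from embryo or preparation here. The barcodes were tied to a genotype by the number of cells with each barcode suffix, 10524 for control and 7596 for *Smo*-cKO. These match the cell numbers in the study's methods, and nothing else was used to assign them.

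Members hold 3569962 UMIs in control, with a median of 5403 per cell, and 3175588 in *Smo*-cKO, with a median of 8936. Mitochondrial transcripts took a median of 0.723% and 0.756% of their UMIs. The libraries share 28 barcode sequences, and 3 members carry one of these. Levels are given as CPM, the summed UMIs of a gene scaled to the same total of 1000000 UMIs. Log2 ratios of CPM have 5 CPM added to each side, and ratios with an interval have nothing added. In counts of genes, a gene is higher or lower when it lies past 2-fold on the log2 scale with at least 50 UMIs. For a named gene with its values printed, higher or lower gives the direction of these values.

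*Smo*, the deleted gene, checked the assignment of the libraries. It lies on chromosome 6 from 29735503 to 29761365 on the plus strand of GRCm38. Control members held 56 *Smo* UMIs in 53 of 607 cells, a level of 15.7 CPM. *Smo*-cKO members held 0 UMIs in 339 cells, and a count of 0, taken to allow 3 cells, limits the share with a UMI to 0.885%. The level was at least 16.6-fold lower in *Smo*-cKO, taking 3 UMIs over the library's members as the floor. *Prm1*, a gene of sperm chromatin, gave 0 UMIs in control members and 1980 UMIs in 313 of 339 *Smo*-cKO members. *Xist*, which is transcribed from the inactive X chromosome of female cells, had a UMI in 70 of 607 control members and in 1 of 339 *Smo*-cKO members, and in all cells in 1768 of 10498 and 6 of 7209. A UMI of a Y-linked gene was found in 46.8% of control and 68.1% of *Smo*-cKO members. The libraries thus differ in the sex of their cells, which cannot be told apart from genotype. Leaving out every cell with a *Xist* UMI, which does not remove female cells without one, left the log2 ratios of all 40 named genes that were recomputed within their intervals.

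Cycling RG cells made up a smaller share of the cells in *Smo*-cKO. They were 5.78% of control cells (5.34 to 6.25%) and 4.70% of *Smo*-cKO cells (4.23 to 5.22%), so the share was -1.08 percentage points apart (-1.74 to -0.410). Among the cells that passed the RG and exclusion conditions, 607 of 1704 control cells (35.6%, 33.3 to 37.9%) and 339 of 1257 *Smo*-cKO cells (27.0%, 24.5 to 29.5%) were cycling, a difference of -8.65 points (-11.97 to -5.28). All RG cells, cycling or not, were 16.2% of control and 17.4% of *Smo*-cKO cells. When cells with an exclusion gene were kept, the differences were -6.01 points of all cells and -14.4 points of RG cells. A smaller share of RG cells thus met the cycling condition in *Smo*-cKO, while RG cells as a whole were not a smaller share.

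Among dividing cells the order was the opposite. Cells with at least 3 of the 7 cycling genes were 19.9% of control and 10.6% of *Smo*-cKO cells. Members were 29.1% of the 2086 dividing control cells (27.2 to 31.1%) and 44.3% of the 765 dividing *Smo*-cKO cells (40.8 to 47.9%). Dividing cells with a UMI of *Eomes*, a transcription factor of intermediate progenitors of pyramidal neurons, were 741 in control and 164 in *Smo*-cKO. Dividing cells with a UMI of *Egfr* or *Olig2*, genes of the glial and olfactory bulb interneuron lineages, and no *Eomes* UMI were 402 and 93. The exclusion genes removed 62.4% of the dividing control cells with at least 6 RG markers and 49.8% of those in *Smo*-cKO, and a cell can have several of these genes. *Olig2* had a UMI in 21.9% against 11.9% of them, *Neurod2* in 16.2% against 15.4% and *Gad2* in 2.79% against 3.56%.

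*Smo*-cKO members are deeper, and a deeper cell shows a UMI of any gene more often. Cells were therefore thinned at random to 4000 UMIs in 20 draws, a depth that 5319 control and 4810 *Smo*-cKO cells reach, and the conditions were applied to the thinned counts. The mean share of cycling cells among RG cells was then 42.6% in control and 25.3% in *Smo*-cKO, and the share of all cells was 10.1% and 6.804%. Thinning also leaves out every cell under 4000 UMIs, which kept 64.9% of control and 89.9% of *Smo*-cKO RG cells. With that limit alone and no thinning, 43.8% of control RG cells (40.8 to 46.7%) and 28.4% of *Smo*-cKO RG cells (25.8 to 31.1%) were cycling. The depth limit alone thus raised the share in control to about its thinned value, while in *Smo*-cKO it raised the share slightly and thinning lowered it. The share was lower in *Smo*-cKO under each of these settings.

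**Figure D1:**
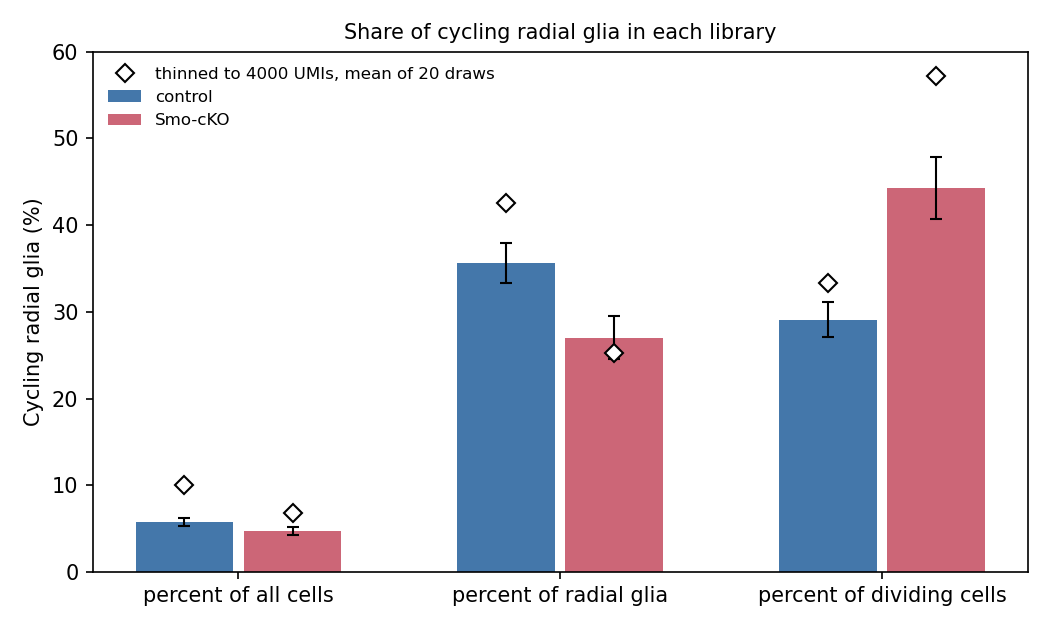
Share of cycling RG cells in each library as a percent of all cells, of RG cells and of dividing cells. Bars are the shares in the deposited counts with exact 95% counting intervals and diamonds are means of 20 draws at 4000 UMIs per cell. Cycling cells were 35.6% of RG cells in control and 27.0% in *Smo*-cKO, and 29.1% and 44.3% of dividing cells.

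The conditions have thresholds, and cells close to them are few for RG markers and more numerous for cycling genes. Members with exactly 3 cycling genes were 89 in control and 49 in *Smo*-cKO, and cells just outside with 2 were 103 and 71. All 7 cycling genes had a UMI in 33.8% of control and 39.2% of *Smo*-cKO members. Members with exactly 6 RG markers were 9 and 4, and cells just outside with 5 were 7 and 4. All 12 RG markers had a UMI in 27.5% and 41.0% of members. Genes that the conditions did not use, such as *Hes1*, *Notch2*, *Hopx* and *Apoe*, are set against other dividing cells below.

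Members differed between the libraries in a small part of their genes. Of 8685 genes with at least 50 UMIs, 52 were higher past 2-fold in *Smo*-cKO members, which is 0.599%, and 66 were lower, which is 0.76%. The counts depend on the CPM added, with 96 and 112 at 1 CPM and 20 and 24 at 20 CPM. The median log2 ratio over these genes was -0.03, and 45.4% had a higher and 54.6% a lower level in *Smo*-cKO. The interval of the ratio lay above 1 for 10.4% and below 1 for 13.9% of them, against which the counts of intervals in each list are to be read. Intervals narrow as UMIs increase, and among the 4510 genes with at least 200 UMIs these were 14% and 18.4%. In non-cycling RG cells, which passed the RG and exclusion conditions and had 0 UMIs of the 7 cycling genes (767 control and 640 *Smo*-cKO cells), the percentages of 9130 genes were 0.997% higher and 0.723% lower.

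The SHH targets were close to 0 in *Smo*-cKO members. *Ptch1*, which encodes the SHH receptor, is itself a target and lies on chromosome 13 from 63508328 to 63573598, had 86 UMIs (24.1 CPM) in control and 7 UMIs (2.20 CPM) in *Smo*-cKO. Its log2 ratio was -2.01 and its ratio 0.0915 (0.0357 to 0.197). *Gli1*, a transcriptional activator of the pathway, had 19 UMIs in control and 1 in *Smo*-cKO, a ratio of 0.0592 (0.00142 to 0.372). *Hhip*, which binds SHH at the cell surface, had 7 UMIs in control and 0 in *Smo*-cKO.

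The SHH co-receptor *Gas1* was lower, at 315 CPM in control and 176 in *Smo*-cKO (ratio 0.559, 0.504 to 0.619). Its fellow co-receptors *Cdon* (113 and 128 CPM) and *Boc* (20.7 and 24.6 CPM) had intervals that included 1, as did the transcription factors *Gli2* (16.8 and 15.4 CPM) and *Gli3* (100.3 and 109 CPM). Of the 9 genes of the SHH list with at least 50 UMIs, 2 were lower past 2-fold (0.76% over all genes) and 0 higher. The list median was 0.10. The genes past 2-fold were *Ptch1* and *Smo*, with log2 ratios of -0.99 and -0.84 at 20 CPM added, and *Gas1* was lower by less. *Gli3*, which gives rise to the pathway's repressor, was at a like level in both libraries.

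The BMP list held a few genes with large differences and many without. *Id3*, an inhibitor of basic helix-loop-helix factors that BMP signalling induces, lies on chromosome 4 from 136143497 to 136145755. It had 432 UMIs in 161 control members (121 CPM) and 2134 UMIs in 240 *Smo*-cKO members (672 CPM). Its log2 ratio was 2.43 and its ratio 5.55 (5.005 to 6.17). With exclusion genes not applied the log2 ratio was 2.11. *Bmp7*, a BMP ligand, had 31 UMIs (8.68 CPM) in control and 78 UMIs (24.6 CPM) in *Smo*-cKO, a ratio of 2.83 (1.84 to 4.44). Both genes were past 2-fold and higher in *Smo*-cKO, and *Bmp7*, with a log2 ratio of 1.11, was not past it at 20 CPM added (0.64).

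*Hopx*, a homeodomain-only gene of outer RG cells, was 561 CPM in control and 1002 in *Smo*-cKO (ratio 1.79, 1.69 to 1.89). Its log2 ratio went from 0.83 to 1.07 with exclusion genes not applied. The remaining Id genes were less far apart. *Id1* was at 138 and 175 CPM (ratio 1.28, 1.13 to 1.44) and *Id2* at 110.4 and 145 CPM (1.31, 1.14 to 1.502). *Id4* was at 192 and 175 CPM, with an interval of 0.813 to 1.02 that included 1. The receptor *Bmpr1a* was at 75.1 and 74.0 CPM, and the inhibitory SMAD gene *Smad7* at 18.8 and 18.3 CPM. Of the 15 genes tested, 2 were higher past 2-fold (0.599% over all genes) and 0 lower. Intervals lay above 1 for 5 (10.4% over all genes) and below 1 for 2 (13.9%), and the list median was -0.08. *Id3* and *Bmp7* stood out in a list whose other members were mostly near the median of all genes.

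Members and non-cycling RG cells did not show the same size of difference for *Id3*. The ratio was 5.55 in members and 511 over 166 CPM, or 3.08 (2.81 to 3.39), in non-cycling RG cells, and the 2 intervals did not overlap. Within *Smo*-cKO, *Id3* was at 511 CPM in RG cells with 0 cycling genes, 617 with 1 or 2, 646 with 3 or 4, 634 with 5 or 6 and 706 with all 7. In control the same classes gave 166, 161, 127, 122 and 117 CPM. *Id3* was thus higher in cycling than in non-cycling cells in *Smo*-cKO and lower in control. Cells of each class were deeper in *Smo*-cKO, with medians of 6443 against 4178 UMIs at 0 cycling genes and 11414 against 6609 at all 7. A deeper cell shows more of these genes, so a class need not hold the same cycle state in both libraries. *Bmp7* was at 21.9, 14.2, 25.5, 23.3 and 24.9 CPM over these classes in *Smo*-cKO and at 10.7, 11.3, 5.94, 9.96 and 9.13 CPM in control, with 5 to 92 UMIs in a class.

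The genes of G1 progression split by family member. *Ccnd1*, which encodes cyclin D1 and lies on chromosome 7 from 144929931 to 144939925, had 147 UMIs (41.2 CPM) in control members and 31 UMIs (9.76 CPM) in *Smo*-cKO members, a ratio of 0.237 (0.156 to 0.351). *Cdk6*, a kinase partner of D cyclins, was at 102 and 38.1 CPM (0.373, 0.301 to 0.459). Both were lower past 2-fold in cells with UMIs of at least 3 cycling genes. The *Ccnd1* value depended on the exclusion genes: when cells with a UMI of these were kept, its log2 ratio was -0.22, against -1.65 in members.

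Cyclins D2 and D3 were on the other side. *Ccnd2* was at 470.3 CPM in control and 722 in *Smo*-cKO (1.54, 1.44 to 1.63), and *Ccnd3* at 46.5 and 60.8 CPM (1.31, 1.06 to 1.62). *Cdk4*, the kinase that also binds D cyclins, was at 504 and 536 CPM with an interval of 0.996 to 1.14. Cyclin E2, which acts at the entry into S phase, had *Ccne2* levels of 51.0 and 55.4 CPM. The transcription factor genes *E2f3* (23.5 and 12.9 CPM), *E2f7* (27.2 and 16.7 CPM) and *Mycn* (45.4 and 29.3 CPM) were lower with intervals below 1 but not past 2-fold. Of 16 genes of this list, 2 were lower past 2-fold (0.76% over all genes) and 0 higher, and the median was -0.17.

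Cyclin D1 was low in *Smo*-cKO at every number of cycling genes. *Ccnd1* ranged from 8.48 to 12.01 CPM over the 5 classes in *Smo*-cKO and from 36.8 to 47.7 CPM in control, so the 2 libraries did not overlap. *Ccnd2* went from 622 CPM in *Smo*-cKO cells with 0 cycling genes to 751 CPM with all 7, while in control the same cells had 497 and 443 CPM.

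*Cdkn1a* followed another pattern. It encodes p21, a CDK inhibitor induced by p53, and lies on chromosome 17 from 29090976 to 29100727. In *Smo*-cKO its level was 134 CPM in RG cells with 0 cycling genes, 106 with 1 or 2, 45.0 with 3 or 4, 13.8 with 5 or 6 and 22.3 with all 7. In control the classes gave 13.7, 26.4, 14.3, 9.19 and 24.6 CPM. The difference was largest in RG cells with few or no cycling genes. With 5 or 6 the intervals of the libraries overlapped. With all 7 they overlapped only through 1 control cell of 29 UMIs. Without the member with most *Cdkn1a* UMIs of each library, this class was at 4.26 CPM in control (1.56 to 9.27) and 16.1 CPM in *Smo*-cKO (10.4 to 23.8).

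Over all members *Cdkn1a* had 59 UMIs in 16 control cells (16.5 CPM) and 78 UMIs in 32 *Smo*-cKO cells (24.6 CPM), a ratio of 1.49 (1.05 to 2.12). In control, 29 of the 59 UMIs came from 1 cell. The log2 ratio was 0.46, and it was 0.98 without the member with most *Cdkn1a* UMIs of each library, 1.10 without the 5% of members with most UMIs and 1.31 when cells were thinned to 4000 UMIs. In non-cycling RG cells the ratio was far larger, with an interval of 7.24 to 13.5 that did not overlap that of members. Within *Smo*-cKO the log2 ratio of members over non-cycling RG cells was -2.23, and within control it was 0.20. Without the member with most *Cdkn1a* UMIs of each library these were -2.39 and -0.48, so the sign in control rested on 1 cell. The number of cycling genes was used to choose these cells, so this is a description of how *Cdkn1a* sits along it. A deeper cell shows more of these genes, and cells of each class were deeper in *Smo*-cKO.

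Other genes of the p53 list were modestly higher in *Smo*-cKO members. *Trp53* itself was at 75.9 and 99.2 CPM (1.31, 1.11 to 1.54), *Phlda3*, a p53 target that restrains AKT, at 15.4 and 28.3 CPM (1.84, 1.30 to 2.62), and *Aen*, a p53-induced nuclease, at 18.2 and 30.9 CPM (1.70, 1.23 to 2.36). *Bax*, which promotes cell death at the mitochondrion, was at 273 and 330.0 CPM (1.21, 1.11 to 1.32). *Mdm2*, which targets p53 for degradation, was at 24.4 and 19.8 CPM, with an interval that included 1. Of 10 genes tested, 7 intervals lay above 1 (10.4% over all genes) and 0 below, 0 genes were past 2-fold and the median was 0.41. In non-cycling RG cells the list median was 1.14, so the values were again smaller in cycling than in non-cycling cells.

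Of the remaining CDK inhibitors with at least 50 UMIs, *Cdkn1b* and *Cdkn3* had intervals below 1, and 0 were past 2-fold. *Cdkn1b* (p27) was at 167 and 140.4 CPM (0.841, 0.742 to 0.953) and *Cdkn3*, a phosphatase that acts on CDKs and is also in the G2 and mitosis list, at 122 and 91.3 CPM (0.746, 0.641 to 0.867). *Cdkn2b* (p15) had 17 and 5 UMIs. *Cdkn2c* (p18) was at 127 and 115 CPM and *Cdkn2d* (p19) at 128 and 127 CPM, both with intervals that included 1. Both INK4 genes were higher in members than in non-cycling RG cells of their own library, with log2 ratios of 2.59 and 2.40 for *Cdkn2c* and of 2.00 and 1.82 for *Cdkn2d* in control and *Smo*-cKO.

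**Figure D2:**
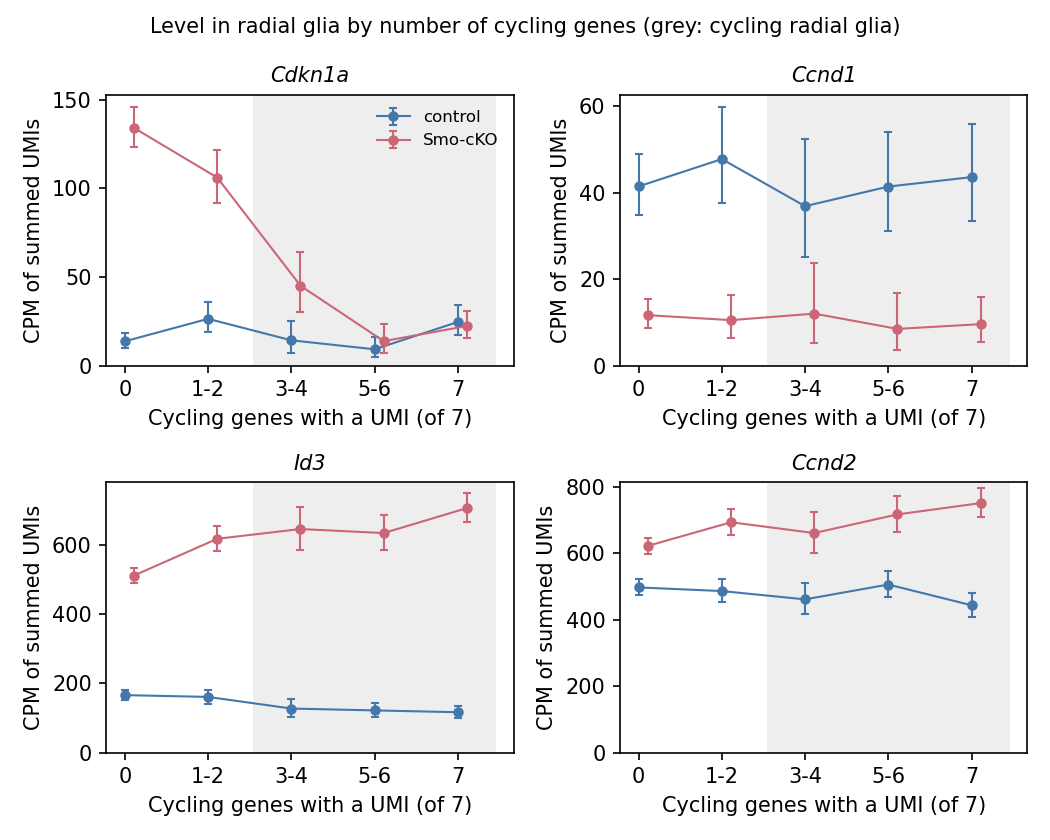
Level of 4 genes in RG cells by the number of cycling genes with a UMI, as CPM of summed UMIs with exact 95% counting intervals, in control and *Smo*-cKO. The grey area holds the cycling RG cells. Cells of each class are deeper in *Smo*-cKO than in control. *Cdkn1a* went from 134 to 22.3 CPM in *Smo*-cKO from 0 to all 7 cycling genes, *Ccnd1* stayed below control in every class, and *Id3* and *Ccnd2* stayed above it.

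Of the transcripts of the DNA replication list and the G2 and mitosis list, most in members were of G2 and mitosis genes. For each cell, the UMIs of 34 DNA replication genes were taken as a share of the UMIs of these and of 47 G2 and mitosis genes outside the 7 cycling genes. The median share was 0.0769 in control members (range 0 to 0.717) and 0.0944 in *Smo*-cKO members (range 0 to 0.803). It exceeded 0.5 in 40 control members (6.59%, 4.75 to 8.87%) and in 41 *Smo*-cKO members (12.1%, 8.82 to 16.0%), a difference of 5.50 percentage points (1.71 to 9.77). The same difference was -2.11 points (-6.83 to 4.01) in dividing *Eomes* cells, the other way. In dividing *Egfr* or *Olig2* cells it was 3.68 points (-4.10 to 13.4). In control, 13.1% and 15.7% of these 2 groups of dividing cells exceeded 0.5. The cut is a point in a range, and 71 control and 39 *Smo*-cKO members lie between 0.4 and 0.6. The cycling genes of the rule are mostly G2 and mitosis genes, so cells early in the cycle are under-represented among members. A deeper cell shows more of these genes, so such cells can meet the condition more often in the deeper library. Members above 0.5 were deeper in *Smo*-cKO, with a median of 8908 UMIs per cell against 5637 for control. Members therefore need not hold the same cycle states in both libraries, which also limits the list values below.

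The lists behind this share differed by small amounts in opposite directions. Of 47 G2 and mitosis genes, 42 had a lower and 5 a higher level in *Smo*-cKO members (54.6% and 45.4% over all genes). For 29 the interval lay below 1 (13.9% over all genes) and for 0 above, and the median log2 ratio was -0.25. *Cenpa*, the centromeric histone, was at 834 and 575 CPM (ratio 0.690, 0.650 to 0.731), and *Tpx2*, a spindle assembly factor, at 417 and 302 CPM. *Ccnb1* (cyclin B1) and *Cdc20*, an activator of the anaphase-promoting complex, were at 317 and 294 CPM and at 308 and 299 CPM, with intervals that included 1. No gene of this list was past 2-fold.

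Of 34 DNA replication genes, 23 had a higher and 11 a lower level in *Smo*-cKO members (45.4% and 54.6% over all genes). For 9 the interval lay above 1 (10.4% over all genes) and for 0 below. No gene was past 2-fold and the median was 0.14. *Pcna*, the polymerase clamp, was at 231 and 282 CPM (1.22, 1.11 to 1.35), *Chaf1b*, a histone chaperone subunit, at 18.8 and 35.6 CPM (1.90, 1.39 to 2.60), and *Tyms*, which makes thymidylate, at 117 and 151 CPM. The helicase subunits *Mcm2* (30.3 and 36.2 CPM) and *Mcm7* (153 and 146 CPM) had intervals that included 1.

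The list of the centrosome and of inherited microcephaly holds genes that act in spindle formation. Of 23 tested, 17 had a lower and 6 a higher level in *Smo*-cKO members (54.6% and 45.4% over all genes). For 8 the interval lay below 1 (13.9% over all genes) and for 0 above. No gene was past 2-fold and the median was -0.22. *Aspm*, a spindle pole protein, was at 188 and 132 CPM, *Numa1*, which anchors spindle poles to the cortex, at 52.9 and 32.1 CPM, and *Plk4*, which starts centriole duplication, at 84.3 and 59.2 CPM. *Pafah1b1* (LIS1), a dynein regulator, was at 209 and 212 CPM, with an interval that included 1.

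The apical junction list, which describes the contact of RG cells with the ventricle, had 12 of 14 genes at a lower level in *Smo*-cKO members (54.6% over all genes), 6 intervals below 1 (13.9% over all genes) and a median of -0.18. *Fat4*, a large cadherin, was at 22.4 and 9.13 CPM (0.408, 0.257 to 0.630), and *Pard6g*, a subunit of the PAR polarity complex, at 24.7 and 12.9 CPM. *Nes*, the intermediate filament of neural stem cells, was at 102 and 69.0 CPM, and *Cdh2* (N-cadherin) at 533 and 471 CPM. No gene of this list passed 2-fold with 5 CPM added.

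*Sox2*, a stem cell factor, and the 11 tested genes of the Notch list differed by less than 2-fold. *Sox2* was at 413 CPM in control and 292 in *Smo*-cKO (0.706, 0.650 to 0.767), *Notch2* at 720 and 507 CPM (0.704, 0.661 to 0.749) and the Notch target *Hes1* at 412 and 324 CPM (0.786, 0.725 to 0.852). *Notch1* was at 188 and 192 CPM, with an interval that included 1. *Hey1*, also a Notch target, was on the other side at 44.0 and 59.2 CPM (interval 1.08 to 1.67). The Notch list median was 0.03, with 2 intervals above 1 (10.4% over all genes) and 4 below (13.9%).

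Of 19 genes of cortical patterning, 10 had intervals below 1 (13.9% over all genes) and 3 above (10.4%), 0 were past 2-fold and the median was -0.14. *Emx2*, a homeodomain factor of medial and caudal cortex, was at 64.7 and 99.8 CPM (1.54, 1.30 to 1.84), and *Fezf2*, a zinc finger gene of cortical RG cells and deep layer neurons, at 52.1 and 76.8 CPM (1.47, 1.21 to 1.79). *Zbtb20*, a zinc finger repressor, was at 437 and 262 CPM (0.59995, 0.551 to 0.653), and *Nr2f1* (COUP-TFI) at 311 and 231 CPM (0.741, 0.674 to 0.814). *Nr2f1* was at 271 and 296 CPM in non-cycling RG cells, where its interval was 1.01 to 1.19, on the other side of 1.

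In the WNT list, *Sfrp1*, a secreted WNT antagonist, was at 595 and 769 CPM (1.29, 1.22 to 1.37) and *Tcf7l2*, a nuclear effector, at 85.2 and 55.1 CPM (0.647, 0.534 to 0.782). *Axin2*, a feedback inhibitor that WNT signalling induces, was at 15.1 and 21.1 CPM, with an interval that included 1. Of 9 genes tested, 0 were past 2-fold and the median was -0.04. Intervals lay above 1 for 1 gene (10.4% over all genes) and below 1 for 2 (13.9%).

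Glial and outer RG genes lay on both sides. *Bcan*, a proteoglycan of glial matrix, was at 93.0 and 231 CPM (2.49, 2.18 to 2.84), and *Aqp4*, the astrocyte water channel, at 18.8 and 40.6 CPM (2.16, 1.60 to 2.95). *Apoe* and *Clu*, apolipoproteins of astrocytes, were at 1089 and 1567 CPM and at 339 and 522 CPM. *Sparcl1*, an astrocyte-secreted matrix protein, went the other way at 96.4 and 13.9 CPM (0.144, 0.103 to 0.197), and 18 of its 44 UMIs in *Smo*-cKO lay in 1 cell. *Aldh1l1*, a folate enzyme of astrocytes, was at 178 and 146 CPM, and *Slc1a2*, a glutamate transporter, at 54.3 and 35.3 CPM, both with intervals below 1. Of 9 genes of the outer and truncated RG list, 1 was higher past 2-fold (0.599% over all genes) and 0 lower (median 0.26). Of 12 genes of the glial and multipotent progenitor list, 0 were higher and 1 lower (0.76% over all genes), with a median of 0.19. Intervals lay above 1 for 5 (10.4% over all genes) and below 1 for 3 (13.9%).

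Genes of neuronal commitment ranged widely in level, up to *Sox11* at 248 CPM in control and 231 in *Smo*-cKO members. *Insm1*, a zinc finger factor of intermediate progenitors, was at 55.7 CPM in control and 87.9 in *Smo*-cKO members (1.58, 1.31 to 1.90), and *Hes6* at 60.5 and 82.8 CPM. With exclusion genes not applied, the log2 ratio of *Insm1* went from 0.61 to 0.01. *Gadd45g*, which is transient in newly committed cells, was at 38.1 and 28.0 CPM. Of 12 genes tested, 0 were past 2-fold and the median was 0.07. Intervals lay above 1 for 3 (10.4% over all genes) and below 1 for 1 (13.9%). In the list of immediate early and stress genes, 7 of 10 tested had a lower level in *Smo*-cKO members (54.6% over all genes). Of their intervals, 5 lay below 1 (13.9% over all genes) and 1 above (10.4%). None of them was past 2-fold and the list median was -0.10.

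**Figure D3:**
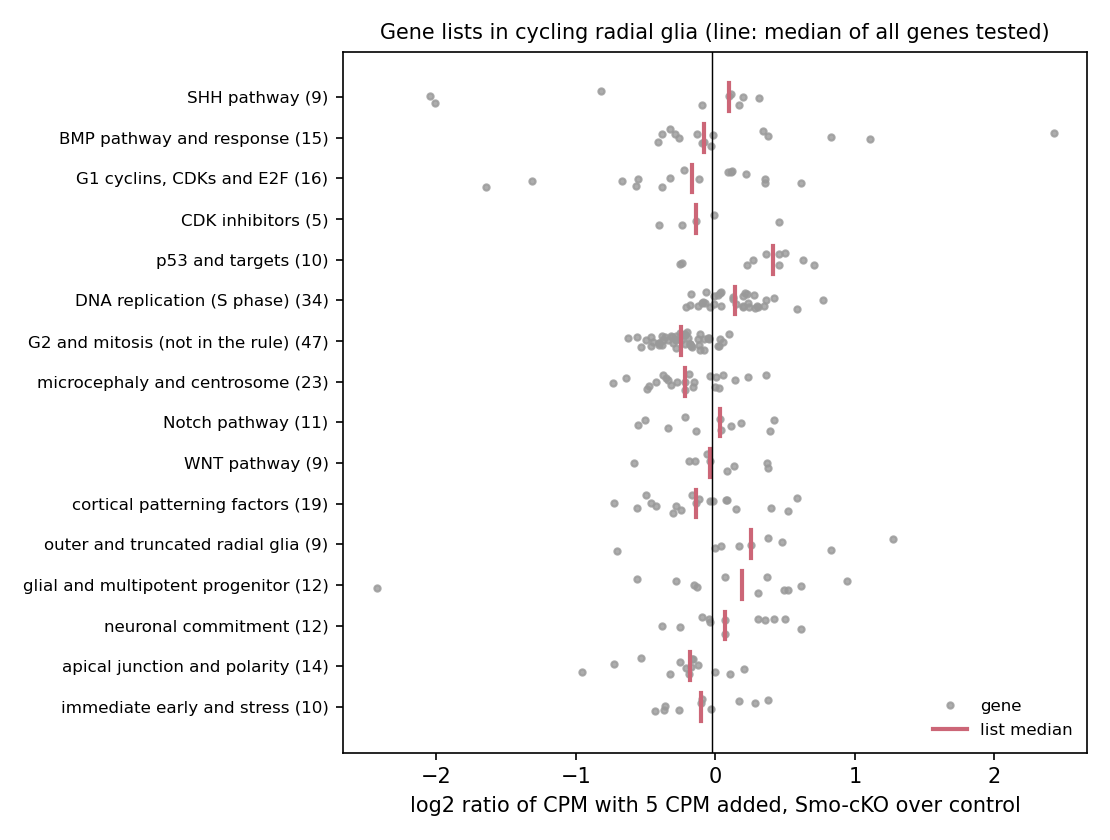
Log2 ratio of CPM, *Smo*-cKO over control, with 5 CPM added, for each gene of 16 lists in cycling RG cells. Each point is a gene with at least 50 UMIs, red bars are list medians, numbers in brackets are genes and the thin line is the median of -0.03 over all 8685 genes. The G2 and mitosis list has its median at -0.25, the p53 list at 0.41, and the SHH and BMP lists have single genes far from their medians.

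The genes with the largest differences in either direction were mostly not in these lists. On the lower side were, besides *Xist* and *Smo*, the genes *Nkain4*, *Entpd2*, *Dpysl4*, *Cd24a*, *Sparcl1*, *Actr3b*, *St8sia1*, *Fgfbp3* and *Hgf*. *Nkain4*, which encodes a protein that binds the sodium pump, had 808 UMIs in 408 control members (226 CPM) and 59 UMIs in 44 *Smo*-cKO members (18.6 CPM), a log2 ratio of -3.29. *Entpd2*, an ectonucleotidase, had 196 UMIs (54.9 CPM) and 9 UMIs (2.83 CPM). *Dpysl4*, a collapsin response mediator, had 160 UMIs (44.8 CPM) and 7 UMIs (2.20 CPM).

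When cells with a UMI of the exclusion genes were kept, the log2 ratio of *Entpd2* went from -2.93 to -2.09 and that of *Dpysl4* from -2.79 to -2.16. *Cd24a*, a surface glycoprotein, was at 91.3 and 12.6 CPM, and its log2 ratio went from -2.45 to -1.11 in the same setting. *Fgfbp3*, which binds fibroblast growth factors, was at 688 and 155 CPM (0.225, 0.204 to 0.248). *Hgf*, a growth factor, was at 72.6 and 13.5 CPM. In that setting the log2 ratio of *Nkain4* went from -3.29 to -2.75, that of *Fgfbp3* from -2.12 to -1.62 and that of *Hgf* from -2.06 to -1.49. For *Nkain4*, *Entpd2*, *Dpysl4*, *Cd24a*, *Fgfbp3* and *Hgf* the log2 ratio lay farther below 0 in members than in non-cycling RG cells, and for *Sparcl1* it was -2.43 in members and -2.51 in non-cycling RG cells. *Nkain4*, for example, was at 293 and 60.1 CPM in non-cycling RG cells, with a ratio interval of 0.178 to 0.236 against 0.0619 to 0.107 in members. These genes were named for their large log2 ratios in members, and that choice alone favours a smaller difference in other cells.

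On the higher side were, besides the check gene *Prm1*, the genes *Spp1*, *Id3*, *C1qc*, *Dio2*, *Tm4sf1*, *Ptcra*, *Gm26737*, *Kcnip1*, *Fcer1g*, *S100a4* and *Tyrobp*. *Dio2*, which activates thyroid hormone, had 69 UMIs in 60 control members (19.3 CPM) and 308 UMIs in 154 *Smo*-cKO members (97.0 CPM), a ratio of 5.02 (3.85 to 6.61). *Tm4sf1*, a membrane protein of the tetraspan group, had 26 UMIs (7.28 CPM) and 140 UMIs (44.1 CPM), and *Kcnip1*, which regulates potassium channels, 19 UMIs (5.32 CPM) and 102 UMIs (32.1 CPM). These 3 genes and *Id3* were spread over many cells, with at most 53 UMIs in any 1 *Smo*-cKO member.

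Several others rested on single cells. One *Smo*-cKO member of 22284 UMIs had UMIs of at least 4 of 8 microglial genes, and it held 196 of the 226 UMIs of these genes in *Smo*-cKO members. It gave 52 of 56 UMIs of the complement gene *C1qc*, 53 of 60 of *Fcer1g* and 47 of 56 of *Tyrobp*, and 215 of 244 of *Spp1*. Without that member *C1qc*, *Fcer1g*, *Tyrobp* and *Spp1* had fewer than 50 UMIs in both libraries together. For *Ptcra*, 85 of 104 UMIs lay in 1 cell, and for *Gm26737* 58 of 96. Without the microglial member, the log2 ratios of all 39 named genes that could be recomputed stayed within their intervals.

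**Figure D4:**
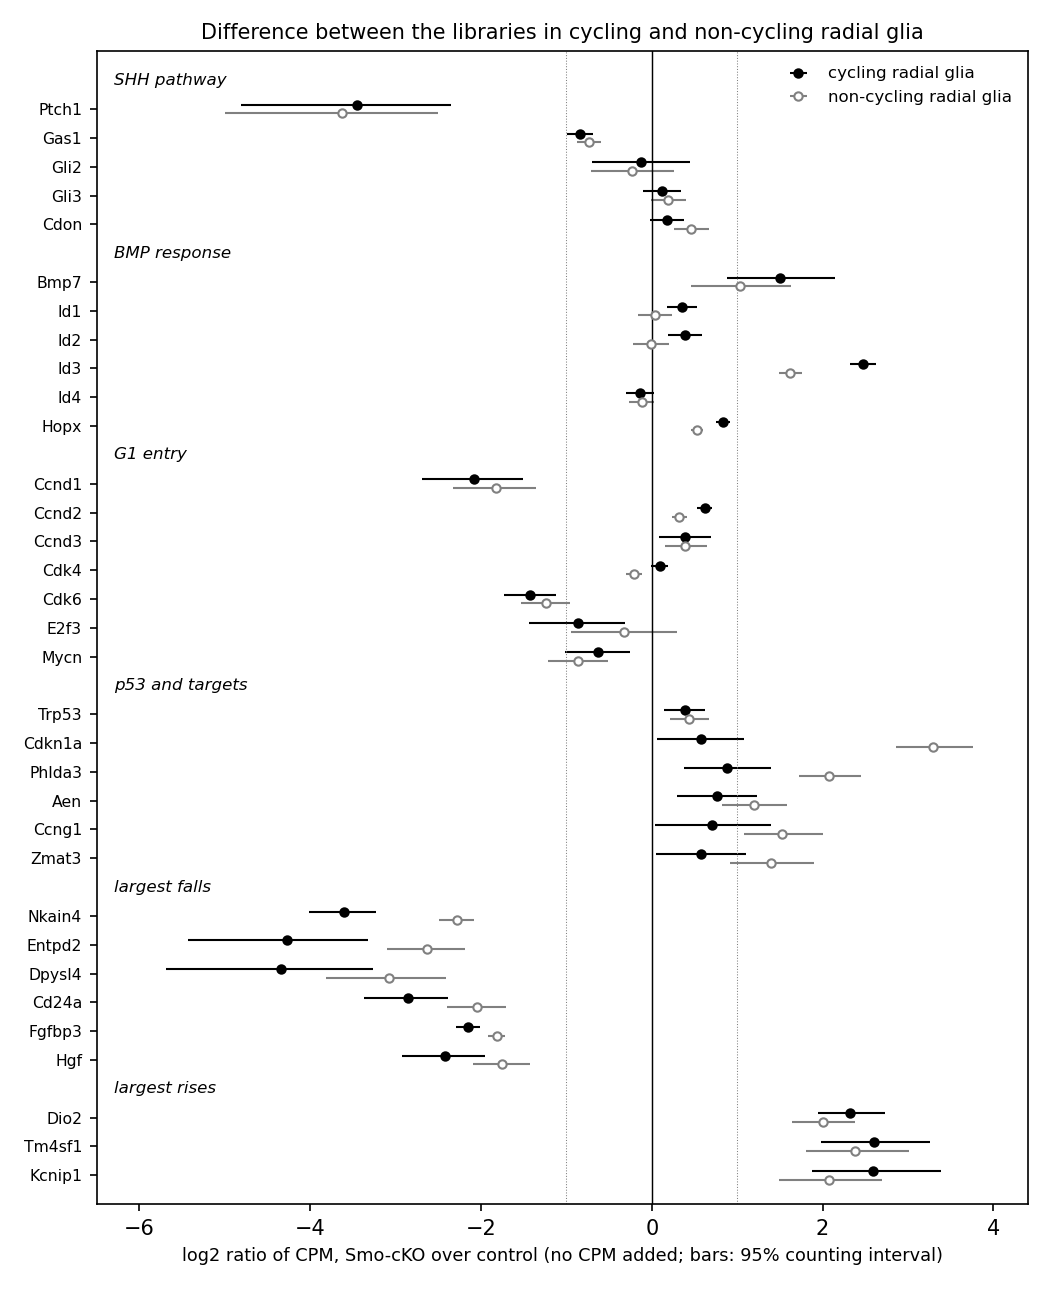
Log2 ratio of CPM, *Smo*-cKO over control, for named genes in cycling RG cells (filled) and non-cycling RG cells (open), with nothing added and with 95% counting intervals. Dotted lines mark 2-fold. The SHH target *Ptch1* and cyclin D1 lie on the same side in both sets of cells, while *Cdkn1a* and *Phlda3* lie closer to 0 in cycling cells. *Nkain4* and *Entpd2*, which were named for their large ratios in cycling cells, lie farther from 0 there.

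Against non-cycling RG cells of the same library, members were chosen by cycling genes, and these values are a description. Of 10487 genes, 386 were higher past 2-fold in both libraries, which is 3.68%, and 38 were lower, which is 0.362%. These counts, and those against other dividing cells below, depend strongly on the CPM added. The last section gives counts with other amounts added. All 47 G2 and mitosis genes and 18 of 34 DNA replication genes were among the higher. *Ccnb1* was at 317 CPM in members and 1.79 CPM in non-cycling cells of control, and at 294 and 2.62 CPM in *Smo*-cKO. *Rrm2*, the small subunit of ribonucleotide reductase, was at 121 and 11.9 CPM and at 147 and 9.99 CPM.

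Several genes outside the rule were lower in members. *Gfap*, an intermediate filament of astrocytes, was at 45.1 and 115 CPM and at 65.5 and 145 CPM. *Fos*, an immediate early gene, was at 198 and 413 CPM and at 164 and 348 CPM. *Ogn*, a small matrix proteoglycan, was at 25.5 and 98.0 CPM and at 11.97 and 55.9 CPM.

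The globins *Hba-a1* and *Hbb-bs* led the lower genes, with 3.08 against 780.1 CPM for *Hba-a1* in control and 7.87 against 58.3 CPM in *Smo*-cKO. They are red blood cell genes, and their level in non-cycling RG cells was itself far higher in control. The 6 blood genes had a UMI in 46 of 607 control members and 86 of 339 *Smo*-cKO members, at 13.7 and 34.95 CPM in all. Their part in the contrast was not tested.

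Members and the other dividing cells were chosen by RG markers and by UMIs of *Eomes*, *Egfr* or *Olig2*, so the comparison between them is again a description, in which lower neuronal and glial lineage genes and higher RG genes go with the choice of cells. Of 10404 genes, 222 were higher in members than in dividing *Eomes* cells in both libraries (2.13%) and 315 were lower (3.03%). Neuronal commitment genes were lower in members for 16 of 17 genes past 2-fold in both libraries. *Sox11*, a factor of newborn neurons, was at 248 CPM in control members and 2161 CPM in dividing *Eomes* cells, with log2 ratios of -3.10 in control and -3.04 in *Smo*-cKO. *Dcx*, a microtubule protein of young neurons, was at 13.4 and 305 CPM in control and at 21.1 and 283 CPM in *Smo*-cKO.

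Genes of the Notch list lay on both sides. The receptors *Notch2* and *Notch3* and the targets *Hes1* and *Hey1*, with the fringe glycosyltransferase *Lfng*, were higher in members past 2-fold in both libraries, and the ligands *Dll1* and *Dll3*, with *Mfng*, also a fringe enzyme, and *Hes6*, were lower. *Hes1* was at 412 CPM in control members and 96.4 in dividing *Eomes* cells, and at 324 and 114 CPM in *Smo*-cKO. *Dll1* was at 1.96 and 20.5 CPM, and at 3.46 and 32.1 CPM. *Hopx*, *Id1*, *Id3* and *Id4* were also higher in members in both libraries.

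Against dividing *Egfr* or *Olig2* cells, 282 of 9764 genes were higher in members in both libraries (2.89%) and 98 were lower (1%). *Apoe*, *Clu*, *Aqp4*, *Aldh1l1*, *Gfap* and *Id4* were higher, and *Dlx1*, *Dlx2*, *Gsx2* and *Olig1* were lower. Cyclin D1 was also lower in members. *Ccnd1* was at 41.2 CPM in control members against 175 CPM, and at 9.76 CPM in *Smo*-cKO members against 318 CPM, so the *Smo*-cKO cells with *Egfr* or *Olig2* were not low in *Ccnd1*. *Ptch1* in the same cells was at 42.3 CPM in control and 19.7 CPM in *Smo*-cKO.

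*Id3* differed in the same comparison. In control it was at 121 CPM in members and 146 CPM in dividing *Egfr* or *Olig2* cells, a log2 ratio of -0.26, and in *Smo*-cKO at 672 and 146 CPM, a log2 ratio of 2.16. The difference between the libraries in *Id3* was thus seen in cycling RG cells and not in these dividing cells, of which *Smo*-cKO has 93. With 1 library per genotype this was not tested. Whether these dividing *Smo*-cKO cells had lost *Smo*, or all came from cortical RG cells, was not tested either.

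**Figure D5:**
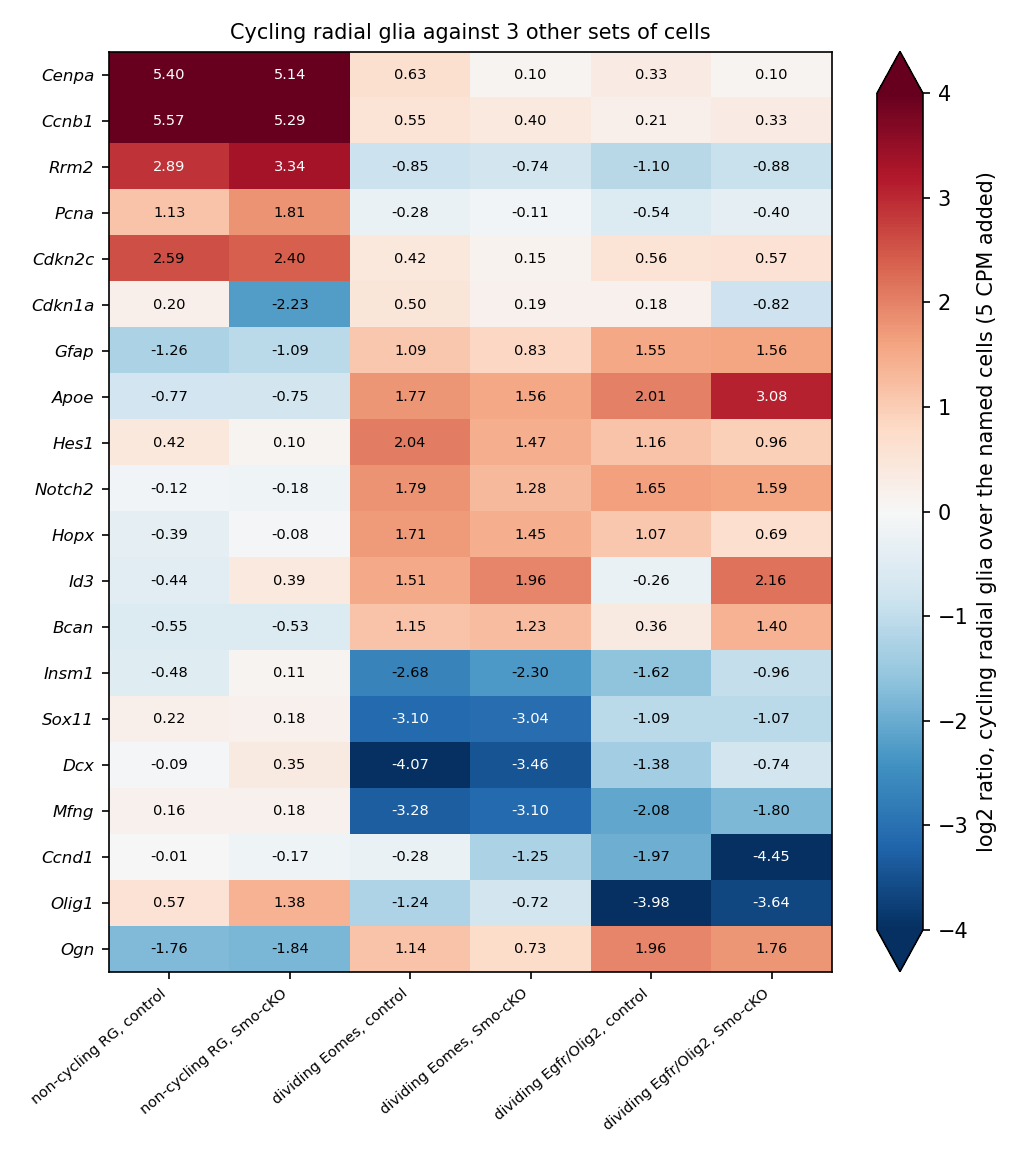
Log2 ratio of CPM (5 CPM added) of cycling RG cells over non-cycling RG cells, dividing *Eomes* cells and dividing *Egfr* or *Olig2* cells, in each library. Red is higher in cycling RG cells and blue is lower, and the printed value is the log2 ratio. Members differ from non-cycling RG cells in cell cycle genes such as *Ccnb1* (5.57 and 5.29) and from other dividing cells in genes such as *Apoe* (1.77 and 1.56 against dividing *Eomes* cells).

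Genes of other cell types were at low summed levels in members. The list of 9 microglial genes, of which 8 were used above, summed to 21.6 CPM in control and 97.9 CPM in *Smo*-cKO, with *P2ry12* at 0 in both. The 10 vascular genes in the table summed to 38.4 and 48.2 CPM, with *Cdh5* at 0 in both, the 10 pyramidal neuron genes to 54.9 and 56.7 CPM, with *Slc17a7* at 0 in both, and the 10 genes of the inhibitory lineage to 6.44 and 4.41 CPM, with *Gad1* at 0 in both. The 5 ependymal and choroid plexus genes summed to 13.4 and 14.5 CPM, with *Ttr* at 0 in both. Their part in the values above was not tested, apart from the microglial member that was left out.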

How the data were processed

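Sorted, dye-labeled cortical cells of E18 control and *Smo*-cKO mice were sequenced on the 10x Genomics droplet platform, with 1 library per genotype. Reads went through Cell Ranger, and the authors deposited raw UMI counts per gene and cell, both libraries in 1 table of 17170 genes. The submitters' processing notes name the build mm10, StringTie and Seurat 3, and the annotation is not given in the sources used here. The study's limits of 750 to 5000 genes were applied. The ferret table was not used. No doublet caller was run.

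The members and gene lists were chosen with earlier results of these data known. Members were counted with exact Clopper-Pearson intervals and differences of shares with Newcombe intervals. UMIs were summed over cells as CPM, and ratios were given exact conditional binomial intervals (python 3.11.15, numpy 2.4.6, scipy 1.17.1). With 1 library per genotype there is no test. Named genes are those of the lists, and by rule the 12 genes in each direction with the largest log2 ratio whose interval excludes 1 and whose direction holds at 4000 UMIs per cell, leaving out ribosomal protein and mitochondrial genes. Against non-cycling RG cells they are the 12 with the largest of the smaller ratio of both libraries, outside the rule genes, and not all are described. Some named genes are not reported here. *Prm1* and *Xist* were named as checks. The calculation was tested on simulated data. Coordinates are from GENCODE vM21 (GRCm38), which held 16575 of the 17170 symbols. A UMI counts a molecule once, so depth sets the precision, from 607 and 339 member cells with 3569962 and 3175588 UMIs. Alternatives were other thresholds of each condition, thinning, another added CPM, another minimum of UMIs, equal weight per cell and centring.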

Additional observations from a re-analysis of the deposited data

Results flagged for a closer look

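Some list medians of the log2 ratio, *Smo*-cKO over control, had opposite signs in cycling and in non-cycling RG cells. The DNA replication list had a median of 0.14 in cycling and -0.41 in non-cycling RG cells, the SHH list 0.10 and -0.18, and the glial and multipotent progenitor list 0.19 and -0.12. These differences were not tested, since each genotype has 1 library, and non-cycling RG cells were chosen by 0 UMIs of 7 cycling genes. That condition is stricter in deeper cells, and non-cycling RG cells had medians of 4178 UMIs in control and 6443 in *Smo*-cKO.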

How the results depend on the processing

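Of the results recomputed, those that changed direction were of *Cdkn1a*. Without the member with most *Cdkn1a* UMIs of each library, the log2 ratio of control members over non-cycling RG cells went from 0.20 to -0.48, and that of *Smo*-cKO over control in members with all 7 cycling genes from -0.11 to 1.19. Thinning to 4000 UMIs, which also leaves out shallower cells, moved the difference in the share of cycling RG cells to -3.31 points of all cells, -17.6 of RG cells and 24.2 of dividing cells (1 draw). Leaving out cells under 4000 UMIs without thinning gave -2.43 of all cells and -15.4 of RG cells. Keeping cells with an exclusion gene moved it to -6.01, -14.4 and 10.9. Counts past 2-fold moved with the CPM added. With 1 CPM they were 96 higher and 112 lower in *Smo*-cKO members, 167 lower than in non-cycling RG cells, 384 higher than in dividing *Eomes* cells, and 469 higher and 153 lower than in dividing *Egfr* or *Olig2* cells. With 20 CPM these were 20 and 24 in *Smo*-cKO members, 227 higher and 4 lower than in non-cycling RG cells, 91 and 134 than in dividing *Eomes* cells, and 117 and 27 than in dividing *Egfr* or *Olig2* cells. With at least 200 UMIs the genotype counts were 20 and 31, and with thinning 63 genes were lower than in dividing *Egfr* or *Olig2* cells. Of 40 named genes, 18 left their interval when exclusion genes were not applied, among them *Ccnd1*, with a log2 ratio of -0.22 against -1.65, *Id3*, *Hopx*, *Nkain4*, *Fgfbp3* and *Hgf*, and 6 of 36 did when thinned, among them *Cdkn1a*, with 1.31 against 0.46. Leaving out cells with a *Xist* UMI, cells under 4000 UMIs without thinning, the microglial member and the members with most *Cdkn1a* UMIs were chosen after seeing the data. No paired analysis was possible because each genotype has 1 library. Depth limits *Gli1*, *Hhip* and *Bmp7*, which rest on few UMIs.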
